A study of Mus musculus with 24 samples.

Results

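The genes described here are the 10 mouse genes of the major histocompatibility complex (MHC) class II presentation pathway that form the class II molecule, help to load it with peptide or, for Ciita, switch its genes on: H2-Aa, H2-Ab1, H2-Eb1, Cd74, Ciita, H2-DMa, H2-DMb1, H2-DMb2, H2-Oa and H2-Ob. They were chosen by name, with earlier results of these data known, as the rows of the count tables whose Ensembl identifier carries one of these symbols, and they make up 10 of 55421 listed genes. All 10 passed the filter on low counts and were among the 25033 genes tested.

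The study sequenced mRNA from uninjured carotid arteries of ovariectomized C57BL/6 mice that received vehicle, 17β-estradiol (E2), estetrol (E4) or the selective estrogen receptor modulator tamoxifen, with 6 libraries per group. The titles call the vehicle group OVX, for ovariectomy, which all 4 groups share, and the labels give an age of 9 weeks for all of them. The treatment field of the E4 libraries reads placebo, as it does for vehicle, so E4 rests on the titles. The labels and the paper differ on the length of treatment and so on the age of the mice, and each library carries its own animal number.

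MHC class II molecules display peptides from endocytosed proteins to CD4 T cells, and in arteries they are found mainly on macrophages, dendritic cells and B cells. An alpha and a beta chain assemble on the invariant chain, encoded by Cd74, which blocks the groove until endosomal proteases remove it. H2-M then exchanges the remaining fragment for peptide, H2-O restrains H2-M, chiefly in B cells, and the transactivator CIITA switches the whole set on through a shared promoter element.

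That promoter element is shown for 4 genes, 2 of the chains and the 2 H2-O genes, which differed in their pattern across treatments. RefSeq windows from 250 bases before to 50 after the start site (GRCm38.p6) were at hand for 7 of the 10 genes. All 7 held the letters GATTGG, the core of the Y box, on at least one strand, against 16.1% of 32851 windows of the same length, and 4 held AACNNATG, letters of the X box, against 8.86%. The 2 motifs do not overlap each other, and both strands were searched. The 60 bases below are on the gene's strand, 5′ to 3′, with matches to either motif in capitals.
H2-Aa, chr17:34287863-34287922, minus strand: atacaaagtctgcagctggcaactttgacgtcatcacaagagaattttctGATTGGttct
H2-Eb1, chr17:34305757-34305816, plus strand: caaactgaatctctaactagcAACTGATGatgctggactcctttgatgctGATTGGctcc
H2-Ob, chr17:34238797-34238856, plus strand: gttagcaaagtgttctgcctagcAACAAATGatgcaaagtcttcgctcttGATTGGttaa
H2-Oa, chr17:34092285-34092344, plus strand: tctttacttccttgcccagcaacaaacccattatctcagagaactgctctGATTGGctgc
In these stretches H2-Eb1 and H2-Ob held both motifs and H2-Aa and H2-Oa only the Y box letters, so the matches did not divide the chains from the H2-O genes.

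Library totals ranged from 24647246 to 64221401 counts, with a median of 45156106. Smooth muscle and endothelial markers were detected in every group. A few libraries stood apart. Vehicle animal 5 and tamoxifen animal 35 had summed sympathetic ganglion markers of 39.9 and 189 CPM (counts per 1000000 counts of the library, after TMM scaling), against 1665 to 5792 CPM elsewhere. E2 animal 9 had T cell markers at 400 CPM, against 9.17 to 35.8 in the other E2 libraries, and E4 animal 38 had thyroid and parathyroid markers at 3013 CPM, against a group median of 20.3. Animal numbers fell into a run from 2 to 20 and a run from 24 to 39. The labels do not say what the runs are, so they are given here only as number series.

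Per kilobase of exon, Cd74 was the most abundant member in vehicle arteries, at 85.3 ± 17.6 CPM per kb (SD, n = 6). H2-Eb1 and H2-Aa followed at 51.6 ± 10.1 and 47.8 ± 8.04 CPM per kb, a difference within their spread, and H2-Ab1 stood at 33.5 ± 6.97. The H2-M genes were lower, with H2-DMb1 at 7.96 ± 1.34, H2-DMa at 5.06 ± 0.274 and H2-DMb2 at 2.41 ± 0.736. H2-Ob at 1.15 ± 0.499 and Ciita at 0.844 ± 0.204 did not differ beyond their spread, and H2-Oa was lowest at 0.475 ± 0.217. Of the remaining class II genes of the locus, H2-Eb2 had at most 1.85 CPM in any library. The pseudogene H2-Ea-ps, whose product C57BL/6 mice lack, had 0 counts in every library but 1, where it had 1 count, and a count of 0 allows up to 3 counts.

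By group means, the chains, Cd74, Ciita, H2-DMb1 and H2-DMb2 shared an order: E2 arteries were highest and E4 arteries lowest, with vehicle and tamoxifen between. H2-DMa was also highest with E2, but lowest in vehicle arteries. The 2 H2-O genes differed from this, being highest in vehicle arteries. Over the 10 genes the median log2 fold change was 0.39 for E2, -0.50 for E4 and -0.13 for tamoxifen against vehicle, and -0.84 for E4 against E2, beside medians of 0.01, -0.01, 0.00 and -0.01 over all genes tested. These comparisons share libraries and are not independent. Because the arteries were sequenced whole, fewer cells of a type and less RNA per cell cannot be told apart.

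**Figure D1:**
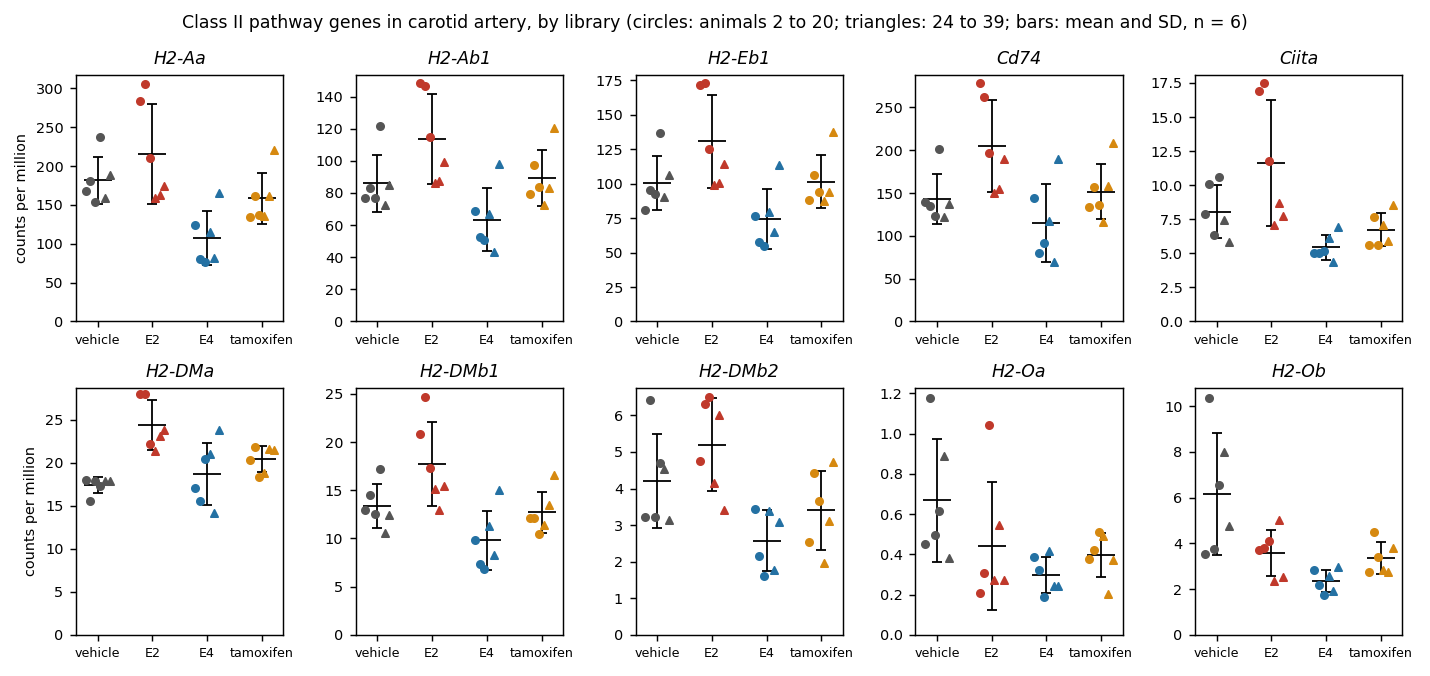
Each panel plots one gene's level in CPM (vertical axis, from 0) for the 24 libraries, with circles for animals 2 to 20, triangles for animals 24 to 39, and bars for the mean and SD of 6 libraries. The first 8 genes are highest on average with E2, while H2-Oa and H2-Ob are highest in vehicle arteries.

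H2-Aa, the alpha chain of the I-A molecule, ran from 154 to 238 CPM in vehicle libraries (median 175) and from 159 to 306 with E2 (median 192). It ran from 77.1 to 166 with E4 (median 98.2) and from 135 to 221 with tamoxifen (median 149). The E4 libraries were the lowest, but the highest of them, animal 39, reached into the vehicle and E2 ranges. H2-Aa fell with E4 by 0.76 ± 0.20 on the log2 scale against vehicle (SE, n = 6 per group, Benjamini-Hochberg adjusted p = 0.0101, edgeR). The log2 fold change was -0.51 in the second number series alone (adjusted p = 0.479), -0.54 with the mean of the B cell marker list as a covariate (0.383), -0.63 with that of T cells (0.0773), -0.26 with that of fibroblasts (0.305) and -0.093 with that of dendritic cells (0.94), all by edgeR.

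H2-Ab1, its beta chain partner, had vehicle levels of 72.7 to 121 CPM (median 80.01), E2 levels of 86.3 to 148 (median 107), E4 levels of 43.2 to 98.1 (median 59.7) and tamoxifen levels of 72.3 to 121 (median 83.4). H2-Eb1, a beta chain, had vehicle levels of 80.9 to 137 CPM (median 93.8), E2 levels of 99.1 to 173 (median 120), E4 levels of 54.5 to 113 (median 70.7) and tamoxifen levels of 87.2 to 138 (median 94.0). For both genes every pair of groups overlapped. Against vehicle neither passed the test with any treatment, and H2-Ab1 had log2 fold changes of 0.40 with E2 and -0.44 with E4 (edgeR Benjamini-Hochberg adjusted p = 0.275 and 0.0895). In the first number series alone both passed as lower with E4 (adjusted p = 0.0409 for H2-Ab1 and 0.0401 for H2-Eb1, edgeR). H2-Ab1 also passed with E4 when E4 animal 39 was left out (adjusted p = 0.0195, edgeR).

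Cd74 ranged from 122 to 202 CPM in vehicle libraries (median 136), from 150 to 278 with E2 (median 193), from 69.8 to 190 with E4 (median 104) and from 116 to 208 with tamoxifen (median 146). Within E2 the 3 animals of the first number series (197 to 278 CPM) lay above the 3 of the second (150 to 190 CPM). Its log2 fold change against vehicle was 0.52 ± 0.21 with E2 and its adjusted p was 0.207 (edgeR, Benjamini-Hochberg). A 12-base overlap with the microRNA gene Mir5107 lets some reads be split between the 2 genes.

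Ciita, the transactivator, ranged from 5.86 to 10.6 CPM in vehicle libraries (median 7.67), from 7.04 to 17.5 with E2 (median 10.2), from 4.38 to 6.91 with E4 (median 5.11) and from 5.62 to 8.52 with tamoxifen (median 6.48). Every E4 library lay below every E2 library, as for 4.13% of all genes. Ciita fell with tamoxifen against E2 by 0.79 ± 0.21 on the log2 scale (edgeR, Benjamini-Hochberg adjusted p = 0.0246). Without E2 animal 6 or 8, or tamoxifen animal 11, 13 or 33, that call was lost, with an adjusted p of up to 0.0852. The value was -1.30 in the first number series and -0.11 in the second (adjusted p = 0.00991 and 0.835), and it was 0.11 and -0.58 with the mean of the macrophage or dendritic cell list as a covariate (0.861 and 0.134), all by edgeR. With the B cell, T cell, ganglion or fibroblast mean it passed. Ciita shares 329 exonic bases with Dexi on the opposite strand.

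H2-DMa, the alpha chain of H2-M, rose with E2 and was the only member passing there by edgeR with all 24 libraries and no covariate. Cd74 and Ciita had larger log2 fold changes with E2, of 0.52 and 0.53, but did not pass. For H2-DMa, vehicle libraries held 15.6 to 18.01 CPM (median 17.9), E2 libraries 21.4 to 28.05 (median 23.5), E4 libraries 14.2 to 23.8 (median 18.8) and tamoxifen libraries 18.4 to 21.9 (median 20.95). All E2 and all tamoxifen libraries lay above all vehicle libraries, as for 2.00% and 1.49% of all genes. The log2 fold change with E2 was 0.49 ± 0.10 (edgeR, Benjamini-Hochberg adjusted p = 0.00488), and with tamoxifen 0.23 ± 0.10, which did not pass (adjusted p = 0.2). In the second number series alone the E2 value was 0.34 (adjusted p = 0.628), and with the mean of the macrophage list as a covariate it was 0.036 (adjusted p = 0.874), both by edgeR. With E4 it was 0.10 ± 0.10 (adjusted p = 0.483). H2-DMa shares 360 exonic bases with Brd2 on the opposite strand, which had up to 10063.5 counts in a library, against at most 1343.5 for H2-DMa. The counts of H2-DMa had decimals in 13 of 24 libraries, while members without an exonic overlap had none. The strand setting of the counting is not given in the sources used here, and how far reads of Brd2 enter the level of H2-DMa was not tested.

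The 2 beta chain genes of H2-M differed in level, with a per-length ratio of H2-DMb1 to H2-DMb2 of 3.48 ± 0.852 in vehicle arteries. H2-DMb1 ran from 10.6 to 17.2 CPM in vehicle libraries (median 12.7), from 12.9 to 24.7 with E2 (median 16.3), from 6.87 to 15.1 with E4 (median 9.05) and from 10.5 to 16.6 with tamoxifen (median 12.1). H2-DMb2 ran from 3.14 to 6.41 CPM in vehicle libraries (median 3.88), from 3.43 to 6.51 with E2 (median 5.39), from 1.62 to 3.43 with E4 (median 2.62) and from 1.96 to 4.73 with tamoxifen (median 3.39). H2-DMb2 fell with E4 by 0.70 ± 0.24 on the log2 scale against vehicle (edgeR, Benjamini-Hochberg adjusted p = 0.0418). That call was lost without any one of vehicle animals 3, 5 and 24 and E4 animals 19, 20 and 38 (adjusted p up to 0.131), and with the number series as a covariate the log2 fold change was -0.67 (edgeR, Benjamini-Hochberg adjusted p = 0.0582). It was also lost without a filter on low counts, with only both groups in the fit and after thinning to the smallest library total (adjusted p = 0.0646, 0.0595 and 0.0622). With marker lists as covariates the value was 0.58 for dendritic cells, 0.16 for B cells, -0.33 for T cells, -0.35 for fibroblasts, -0.54 for the ganglion list and -0.62 for macrophages, none of which passed by edgeR (adjusted p = 0.458, 0.795, 0.393, 0.45, 0.111 and 0.0606). The 2 genes are paralogs, both with whole counts in all 24 libraries. With their counts summed as 1 gene, that gene was lower in E4 against vehicle and in E4 against E2. The number of members passing, with the 2 paralogs counted as 1, was then 4 and 7.

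H2-Ob, the beta chain of H2-O, had the largest fall with E4 among the members. Vehicle libraries ran from 3.53 to 10.4 CPM (median 5.65), E2 from 2.36 to 5.03 (median 3.75), E4 from 1.76 to 2.95 (median 2.36) and tamoxifen from 2.75 to 4.50 (median 3.13). Every E4 library lay below every vehicle library, as for 4.07% of all genes, and the vehicle group was the most spread, with animal 3 at 10.4 and animal 24 at 8.01 CPM. H2-Ob fell with E4 by 1.38 ± 0.24 on the log2 scale (edgeR, Benjamini-Hochberg adjusted p = 0.000931). With E2 its log2 fold change was -0.78 ± 0.24 (adjusted p = 0.0671) and with tamoxifen -0.88 ± 0.24 (adjusted p = 0.051), neither of which passed by edgeR. Both passed by DESeq2 (Benjamini-Hochberg adjusted p = 0.0286 and 0.0139).

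H2-Oa, its alpha chain partner, was near the limit of detection, with 6 to 48 counts per library. It ran from 0.382 to 1.18 CPM in vehicle libraries (median 0.557), from 0.209 to 1.05 with E2 (median 0.291), from 0.188 to 0.416 with E4 (median 0.283) and from 0.202 to 0.511 with tamoxifen (median 0.401). It fell with E4 by 1.13 ± 0.37 on the log2 scale (edgeR, Benjamini-Hochberg adjusted p = 0.0305), a call lost without any one of vehicle animals 3 and 24 and E4 animals 19, 20, 38 and 39 (adjusted p up to 0.0967). With marker lists as covariates the value was -0.24 for B cells (adjusted p = 0.883), -0.49 for T cells (0.294), -1.24 for fibroblasts (0.0988) and 0.26 for dendritic cells (0.924), while with the macrophage or ganglion mean it was -1.19 or -1.11 and passed (0.0317 and 0.0488), all by edgeR. H2-Oa shares 321 exonic bases with the antisense gene BC051537.

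By comparison, 1 of the 10 genes rose and 0 fell with E2 against vehicle, where 4.16% of all genes passed and 2.88% were higher. With E4 against vehicle 4 fell (H2-Aa, H2-DMb2, H2-Oa and H2-Ob) and 0 rose, where 22.0% of all genes passed and 12.5% were lower. Leaving out single libraries moved that count from 2 (without vehicle animal 3 or 24, or E4 animal 19, 20 or 38) to 7 (without E4 animal 39). It was 3 without vehicle animal 5 and tamoxifen animal 35, where 5600 of 25184 genes passed. With tamoxifen against vehicle 0 passed by edgeR and 1, H2-Ob, by DESeq2, where 2.21% of all genes passed by edgeR and 1591 of 25033 by DESeq2, and 3 of the 10 had an unadjusted p under 0.05, as had 21.0% of all genes.

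Of the 6 comparisons E4 against E2 had the most members passing: 8 of the 10 genes were lower with E4 and 0 higher, where 12.5% of all genes passed and 8.97% were lower. The log2 fold change of Ciita was -1.09 ± 0.21 and that of H2-Aa -1.01 ± 0.20 (edgeR, Benjamini-Hochberg adjusted p = 0.00212 and 0.00237). It was -1.01 for H2-DMb2, -0.85 for H2-DMb1, -0.84 for H2-Ab1, -0.83 for Cd74, -0.81 for H2-Eb1 and -0.38 for H2-DMa. H2-Ob, at -0.60, and H2-Oa, at -0.55, did not pass (edgeR, Benjamini-Hochberg adjusted p = 0.101 and 0.323). The count was 7 or 8 whichever library was left out. It was 3 with the mean of the B cell or T cell list as a covariate, where 676 and 647 of 25033 genes passed, and 0 with the macrophage, dendritic cell or fibroblast mean, where 0, 0 and 687 passed. With the macrophage mean 6 of the 8 log2 fold changes turned positive by edgeR, among them Cd74 at 0.48 and H2-Ab1 at 0.31, and none passed (Benjamini-Hochberg adjusted p = 0.246 and 0.354).

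Tamoxifen against E2 gave 1 lower gene, Ciita, where 6.44% of all genes passed and 4.51% were lower. Tamoxifen against E4 gave 0 by edgeR and by DESeq2, where 0.340% of all genes passed, with 4 of the 10 at an unadjusted p under 0.05, as 9.12% of all genes were, and a median log2 fold change of 0.40.

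**Figure D2:**
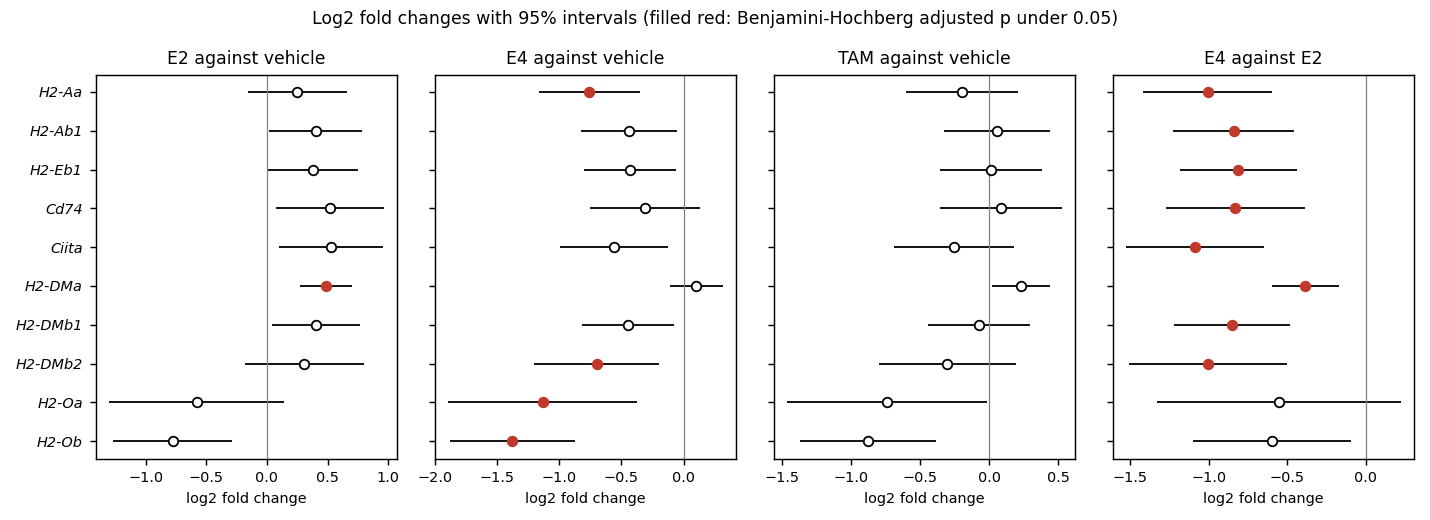
Each panel gives the log2 fold change of the 10 genes (horizontal axis) in one comparison, with 95% intervals, and filled red points mark a Benjamini-Hochberg adjusted p under 0.05 (TAM is tamoxifen). One gene passes with E2, 4 with E4 and 0 with tamoxifen against vehicle, and 8 pass between E4 and E2.

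The differences were not alike in the 2 number series. In the first series (4 vehicle libraries and 3 of each treatment) the median log2 fold change of the 10 genes was 0.57 for E2 against vehicle, -0.81 for E4 against vehicle, -1.27 for E4 against E2 and -0.73 for tamoxifen against E2. In the second series (2 vehicle libraries and 3 of each treatment) the same medians were 0.21, -0.18, -0.37 and -0.038. In E4 against E2, 8 members passed in the first series, where 3193 of 25409 genes passed, and 0 in the second by edgeR, where 0 of all genes passed and 0 members had an unadjusted p under 0.05. The H2-O genes had similar values with E4 against vehicle in both, with log2 fold changes for H2-Oa of -1.18 ± 0.55 and -1.05 ± 0.52 (edgeR, Benjamini-Hochberg adjusted p = 0.163 and 0.439) and for H2-Ob of -1.42 ± 0.36 and -1.35 ± 0.35 (edgeR, Benjamini-Hochberg adjusted p = 0.0294 and 0.216). In E4 against vehicle 6 members passed in the first series, where 3073 of 25409 genes passed, and 0 in the second, where 5 of 25498 genes passed. With the series as a covariate 3 passed (H2-Aa, H2-Oa and H2-Ob), beside 5198 of 25033 genes. In E4 against E2 the same 8 members passed with the series as a covariate as without it. In tamoxifen against E2, 3 members passed in the first series, where 1164 genes passed, and 0 in the second, where 115 passed. The difference between the series was not tested.

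**Figure D3:**
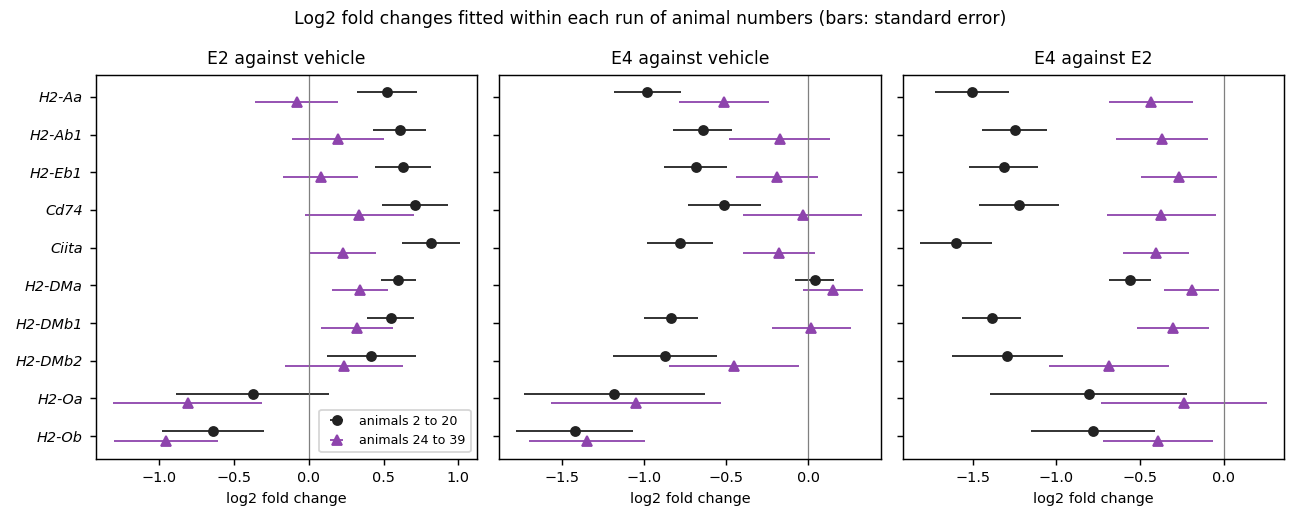
Log2 fold changes of the 10 genes (horizontal axis) fitted separately in animals 2 to 20 (circles) and animals 24 to 39 (triangles), with bars for the standard error, for 3 comparisons. For H2-Aa in E4 against E2 the values are -1.50 in the first series and -0.43 in the second, while for H2-Ob in E4 against vehicle they are -1.42 and -1.35.

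Marker lists of the cells that carry class II, and of fibroblasts, differed between these groups, but not all in the order of the members. Over all genes 2.88% were higher with E2 against vehicle, and 12.5% and 8.97% were lower with E4 against vehicle and against E2. Of 12 macrophage markers 11 rose with E2 against vehicle, and their summed level was 1177 to 1738 CPM with E2, 683 to 1228 in vehicle, 510 to 946 with E4 and 641 to 920 with tamoxifen libraries. With E4 against E2, 11 of the 12 fell. Of 12 dendritic cell markers 5 fell with E4 against vehicle and 5 against E2, with sums of 85.7 to 116 CPM with E4, 109 to 141 in vehicle, 121 to 156 with E2 and 101 to 123 with tamoxifen. With E2 against vehicle the dendritic cell list split, with 6 markers above and 6 below 0 (median log2 fold change -0.02) and 1 passing each way. Of 13 B cell markers 12 were below 0 in that comparison (median -0.87). No marker of the macrophage or dendritic cell list was at 0 throughout a group. All 12 T cell markers fell with E4 against E2, a comparison that includes E2 animal 9. Without that animal 8 members were still lower, and the T cell markers were not tested again. Of 7 adipocyte markers 3 fell and 1 rose with E4 against vehicle, 1 fell with E4 against E2, and 1 rose with E2 against vehicle.

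Of 7 fibroblast markers 5 fell with E4 against vehicle and 4 against E2, beside 12.5% and 8.97% of all genes, and none was at 0. Their sum was 3040 to 4991 CPM with E4, 4570 to 6909 in vehicle, 4590 to 6853 with E2 and 4603 to 7423 with tamoxifen. With the mean of this list as a covariate, a setting chosen after the data had been seen, 1 member passed in E4 against vehicle (H2-Ob) and 0 in E4 against E2 by edgeR, while the genes passing over the whole table went from 5514 to 2055 and from 3134 to 687.

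In the E4 comparisons sympathetic ganglion markers went the other way from most members. All 11 had positive log2 fold changes with E4, with medians of 0.79 against vehicle and 0.61 against E2. By edgeR 0 passed, with 1 and 0 at an unadjusted p under 0.05, beside 36.3% and 30.2% of all genes. All 11 were also positive with E2 and with tamoxifen against vehicle (medians 0.20 and 0.56), and the vehicle group includes animal 5 at 39.9 CPM. Their sums were 3406 to 5792 CPM with E4, 1665 to 4198 with E2, 39.9 to 4333 in vehicle and 189 to 5464 with tamoxifen. With their mean as a covariate 6 members were higher with E2 against vehicle (H2-Ab1, H2-Eb1, Cd74, Ciita, H2-DMa and H2-DMb1), where 2130 of 25033 genes passed, and 8 were lower in E4 against E2.

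B cell markers were highest in vehicle arteries, as the H2-O genes were. Their sum was 10.4 to 53.6 CPM in vehicle, 11.1 to 28.02 with E2, 6.81 to 12.7 with E4 and 7.45 to 18.5 with tamoxifen, and vehicle animals 3 and 24, which had the most H2-Ob, had the 2 highest sums. Of the 13 markers 11 fell with E4 against vehicle, 2 with tamoxifen and 0 with E2 by edgeR, although 8 had an unadjusted p under 0.05 with E2. With the mean of the B cell list as a covariate the log2 fold change of H2-Ob with E4 was -0.35 (edgeR, Benjamini-Hochberg adjusted p = 0.332). With the dendritic cell mean it was -0.12 (adjusted p = 0.93), with the T cell mean -0.97 (0.0168), with the fibroblast mean -1.20 (0.0159) and with the macrophage mean -1.34 (0.00138). With the mean of the macrophage list as a covariate 0 members passed in E4 against E2, as did 0 of all genes, and Cd74 and H2-Ab1 with E2 against vehicle turned from 0.52 and 0.40 to -0.64 and -0.60. The markers' part in the class II differences cannot be told apart from treatment here, because the lists differ between the same groups.

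**Figure D4:**
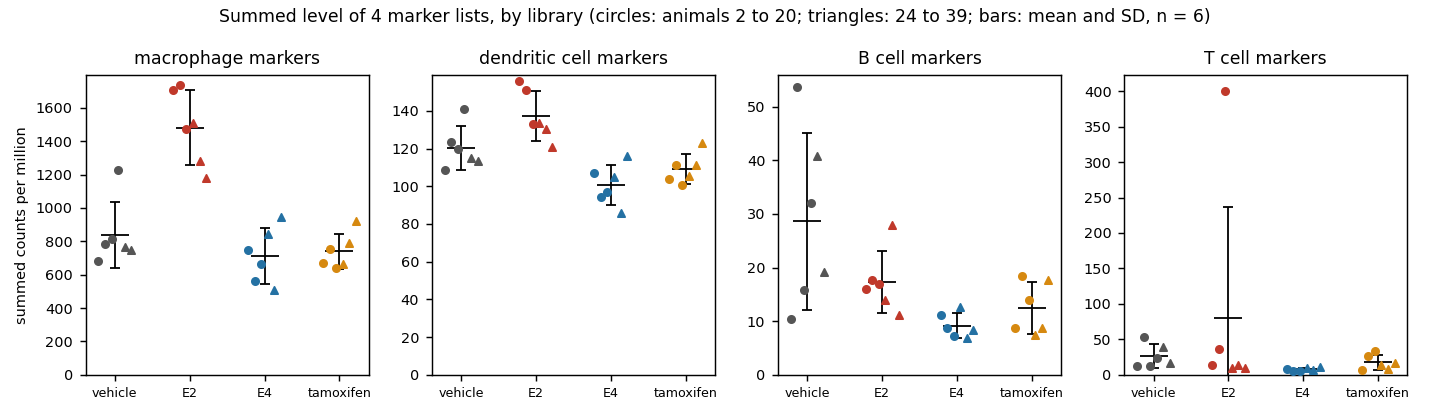
Summed level of 4 marker lists in CPM (vertical axis, from 0) in the 24 libraries, with circles for animals 2 to 20, triangles for animals 24 to 39, and bars for the mean and SD of 6 libraries. Macrophage markers are highest with E2 (1177 to 1738), B cell markers in vehicle arteries, and 1 E2 library has T cell markers at 400.

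Genes that control or serve the pathway were counted in lists, beside 4.16% of all genes passing with E2, 22.0% with E4 (9.52% higher and 12.5% lower) and 2.21% with tamoxifen. With E4 the shares that passed of the transcription factor list (3 of 16), the class I list (4 of 13) and the invariant chain ligand list (1 of 5) were near those of all genes. Of 16 tested transcription factor and interferon gamma signalling genes 4 rose with E2 and 0 fell, while 1 rose and 2 fell with E4. Irf4, a lymphoid and myeloid transcription factor, rose with both E2 and E4, by log2 fold changes of 1.53 ± 0.30 and 1.56 ± 0.30 (edgeR, Benjamini-Hochberg adjusted p = 0.00251 and 0.0015). Spi1, which encodes PU.1, rose with E2 by 0.77 and the kinase gene Jak1 by 0.28, and Rfxank, a subunit of the factor that binds the X box, fell with E4 by 0.27 on the log2 scale. Ifng was not among the genes tested.

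Of 10 genes of endosomal processing 3 rose and 0 fell with E2, and 2 rose and 2 fell with E4. Ctss, a protease that trims the invariant chain in B cells and dendritic cells, rose with E2 by a log2 fold change of 0.61, Ctsh by 0.74 and Ctsb by 0.36. Ctsb also rose with E4, by 0.27, as did Lgmn, a legumain protease, by 0.42. Of 3 turnover genes, March1, which encodes a ubiquitin ligase that removes class II from the surface, rose with E2 by 0.78, and Cd83, which opposes it, fell with E4 by 0.79 on the log2 scale.

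Among 6 costimulation and checkpoint ligands, Cd80 rose with E2 by a log2 fold change of 1.22 ± 0.16 (edgeR, Benjamini-Hochberg adjusted p = 2.98e-05). Cd40, Cd274 and Pdcd1lg2 fell with E4, with log2 fold changes of -0.68, -0.67 and -1.41. Lag3, a class II receptor on T cells, fell with E4 and with tamoxifen, with log2 fold changes of -0.52 and -0.48. Of 5 genes for ligands and co-receptors of the invariant chain 1 fell with E4, Ddt, at -0.41, and 0 passed with E2 or tamoxifen by edgeR, where 2 and 2 had an unadjusted p under 0.05. Of 13 class I genes 2 rose with E2 (Calr at 0.66 and Pdia3 at 0.34), and with E4 2 rose and 2 fell, Erap1 among the latter at -0.27. With tamoxifen 1 rose, Tap2 at 0.34.

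The genes outside the pathway whose level followed the members most closely were Slfn2, Dennd1c, Mir5107, Evi2, Lsp1, Gm29094, Cd48 and Fgd2. Pearson's r with the mean standardized log2 CPM of the 10 members was 0.92 for Slfn2 and 0.90 for Fgd2 over 24 libraries, and 0.85 and 0.77 with the group means removed. These genes were taken because their r was highest, the libraries share treatments and cell content, and Mir5107 lies within Cd74 sequence.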

How the data were processed

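RNA was isolated with TRIzol from carotid arteries and sequenced after Illumina TruSeq Stranded mRNA preparation. Each library's table, as deposited, held gene-level estimated counts that had not been scaled, made per the labels with bcl2fastq 2.17, Trim Galore, Bowtie2 and featureCounts on mm10. Between 8.87% and 9.8% of values had decimals, which can arise where reads are shared between genes, and were rounded. The options of the counting are not given in the sources used here. Of 55421 identifiers 55240 matched GENCODE mouse release 21, from which names, exon lengths and overlaps come.

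Testing used edgeR 4.0.16 in R 4.3.3 (quasi-likelihood F test) with TMM scaling, the default filter on low counts, all 24 libraries in 1 fit without covariates, and Benjamini-Hochberg adjustment over 25033 genes. A gene passed at an adjusted p under 0.05, two-sided. CPM used TMM-scaled totals. On simulated counts for E4 against vehicle, 80.5% of 200 genes changed 2-fold among 24792 were called, with 6 unchanged genes. The changed genes were drawn only from those above a minimum mean count. That share therefore does not hold for smaller changes or for genes with few counts, such as H2-Oa. DESeq2 1.42.0 was an alternative. Figures were drawn with matplotlib 3.10.9. The labels do not say whether arteries were pooled, so p-values measure only the spread between these libraries.

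The members, the lists and the tests were chosen with earlier results of these data known. Genes were named by rule: the 10 members, up to 4 genes per pathway list that passed against vehicle, by lowest p, and the 8 genes most alike. For H2-Ab1, Cd74 and Ciita no promoter window was at hand.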

Additional observations from a re-analysis of the deposited data

Results flagged for a closer look

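In 6 of 56 groups of 6 libraries one library lay far from the others by Dixon's criterion, where chance gives about 2.8. Vehicle animal 5 stood above its group in H2-Ab1 (121.45 CPM, others 72.725 to 85.14), in Cd74 (201.78 CPM, others 122.44 to 139.63) and in summed macrophage markers (1228.5 CPM, others 683.15 to 814.88), and it was the vehicle library with few ganglion markers. Tamoxifen animal 35, the other library poor in ganglion markers, stood above its group in H2-Aa (220.85 CPM, others 134.91 to 161.41). Vehicle animal 3 stood below its group in H2-DMa (15.557 CPM, others 17.359 to 18.008). E2 animal 9 stood above its group in summed T cell markers (399.74 CPM, others 9.1697 to 35.828).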

How the results depend on the processing

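No paired analysis was possible because the groups share no animal number. Counts of members passing were 1, 4, 0, 8, 1 and 0 for E2, E4 and tamoxifen against vehicle, E4 and tamoxifen against E2, and tamoxifen against E4. Leaving out 1 library at a time gave 1 to 2, 2 to 7, 0 to 1, 7 to 8, 0 to 1 and 0. For E2 against vehicle the count was 2 with DESeq2, after thinning, and with the B cell, T cell or dendritic cell mean as a covariate, 3 (all lower) with the macrophage mean, 6 with the ganglion mean, and 0 in the second number series or with an absolute log2 fold change over 1. The member added with DESeq2, thinning and the T cell or dendritic cell mean was H2-Ob, which was lower (-0.78, -0.85, -0.72 and -0.58). H2-Ob, again lower, was also the member added without vehicle animal 2 or 4 or E2 animal 27. Over all genes 1041 passed here, against 1549 with DESeq2, 903 after thinning, 858, 1134, 1238, 2847 and 2130 with the B cell, T cell, dendritic cell, macrophage and ganglion means, 92 in the second series and 318 with the fold threshold. For E4 against vehicle it was 6 in the first series, 3 with the series as a covariate, 0 in the second series and with the B cell or dendritic cell mean, 1 with the T cell mean, and 2 with the fold threshold. Over all genes 5514 passed here, against 3073 in the first series, 5198 with the series as a covariate and 5 in the second series. With the B cell, dendritic cell and T cell mean 109, 68 and 1798 genes passed, and 629 with the fold threshold. For tamoxifen against vehicle it was 1 with DESeq2, its size factors, at least 10 counts in every library, or the macrophage or ganglion mean, where 1591, 711, 778, 925 and 1412 of all genes passed, against 553. For E4 against E2 it was 0 in the second series and with the macrophage or dendritic cell mean, where 0 of all genes passed under each of the 3 settings, 9 with only both groups in the fit (H2-Ob added), and 3 with the B cell or T cell mean or the fold threshold. Over all genes 3134 passed here, against 5348 of 23821 with only both groups in the fit. With the B cell mean, the T cell mean and the fold threshold 676, 647 and 618 genes passed. For tamoxifen against E2 it was 0 with only both groups, in the second series, with the fold threshold or the dendritic cell mean, 2 (higher) with the macrophage mean, 2 with the ganglion mean, and 3 in the first series or without vehicle animal 5 and tamoxifen animal 35. Over all genes 1612 passed here, against 1172, 115, 413, 827, 1279, 3333, 1164 and 3335 in the order given. A further 3 settings were chosen after the data had been seen. With the fibroblast mean as a covariate the counts were 3, 1, 1, 0, 4 and 0, in the order above, beside 1671, 2055, 1695, 687, 2513 and 132 of all genes, and H2-Ab1 in E4 against vehicle became 0.039. Without vehicle animals 3 and 5, tamoxifen animal 35 and E2 animal 9, the count was 2 for E4 against vehicle (H2-Aa and H2-Ob) and 2 for tamoxifen against E2. The next, chosen after that result was known, kept vehicle animal 3 and left out E4 animal 38 in its place, and gave 3 and 1. These 2 gave 8 for E4 against E2. Of 1074 recomputed single values 18 changed direction. With the macrophage mean, E2 against vehicle became -0.64 for Cd74, -0.29 for Ciita and -0.60 for H2-Ab1, E4 against E2 became 0.16 for H2-Aa, 0.31 for H2-Ab1, 0.22 for H2-Eb1, 0.48 for Cd74, 0.13 for H2-DMa and 0.15 for H2-DMb1, and Ciita in tamoxifen against E2 became 0.11. With the dendritic cell mean, E4 against vehicle became 0.58 for H2-DMb2, 0.26 for H2-Oa, 0.077 for Ciita and 0.20 for H2-Ab1, and E4 against E2 became 0.13 for H2-DMb2 and 0.46 for H2-Ob. With the B cell mean, H2-DMb2 in E4 against vehicle became 0.16. The cause was not tested. H2-Oa had the fewest counts, 6 to 48. Thinning to the smallest total ended the call of H2-DMb2 in E4 against vehicle (adjusted p = 0.0622) and not that of H2-Oa (0.0266).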

Other observations

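The per-length ratio of H2-Aa to H2-Ab1, the 2 chains of I-A, was chosen after its values were seen and has no test. It was 1.43 ± 0.075 (SD, n = 6) in vehicle arteries, with libraries from 1.32 to 1.498, 1.27 ± 0.076 with E2, 1.14 ± 0.099 with E4 (1.03 to 1.28) and 1.20 ± 0.084 with tamoxifen (1.11 to 1.31). The vehicle libraries did not overlap those of E4 or tamoxifen. This ratio was picked from several computed between members, and how often pairs of other genes separate in this way was not counted.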
